A study of Mus musculus with 4 samples.

Results

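The genes described here are 35 genes of motile cilia, chosen by symbol as genes known from ependyma and choroid plexus, out of 55471 genes in the deposited count table. All 35 symbols matched 1 Ensembl identifier each in GENCODE M21 on GRCm38. The table holds 4 RNA-seq libraries, all of 1 group: CD11b-positive cells taken from mouse brain with magnetic beads, which the submitters call repopulated microglia. CD11b is a surface integrin of microglia and other myeloid cells, and PLX5622 blocks CSF1R, a receptor whose signal microglia need to survive. The mice, aged 10 to 13 weeks, received PLX5622 for 7 days and were then kept without it for 10 days, 17 days in all. The sources used here do not give strain, sex, or whether a library came from 1 animal or a pool. Every p-value therefore concerns variation among these 4 samples alone, and that variation may be technical. Untreated libraries were not analysed here, so nothing below is an effect of the drug.

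Motile cilia are hair-like cell extensions that beat and move fluid. In the brain they stand in tufts on ependymal cells, which line the ventricles, and on the epithelium of the choroid plexus, which secretes cerebrospinal fluid. Their core, the axoneme, is a bundle of microtubules that carries dynein motor arms, radial spokes and a central apparatus, and its genes are switched on by a small set of transcriptional regulators, among them FOXJ1 and the RFX factors. Microglia are not multiciliated cells. Levels are given as CPM, which is a gene's count per 1000000 with library sizes scaled by edgeR's TMM factors, and values after ± are SDs over the 4 libraries (n = 4). Where genes are compared with each other, TPM is used, which also divides by exonic length.

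The libraries held 23036202 to 24487418 counts, and 3 counts, taken as the floor, correspond to 0.119 to 0.132 CPM. Floors cover counting error only. The 18 homeostatic microglia genes summed to 41268 to 50630 CPM. All 16 choroid plexus genes were also present, summing to 16559, 16738, 3479 and 23340 CPM in libraries 1 to 4, so RNA of choroid plexus genes was present beside that of microglia. Ttr, the thyroxine carrier made there and the reference used below, had 11345, 10479, 2115 and 14562 CPM, a fold of 6.89 (edgeR, adjusted p = 7.22e-08). The next 4 by level were Enpp2, Kl, Clic6 and F5, with folds of 6.33 to 7.00. Library 3 was the lowest for all 16.

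Motile cilia genes were present at low levels in all 4 libraries. Of the 35 genes, 29 reached 1 CPM in every library, against 22.6% of all genes in the table. The other 3 that were tested, Dnaic1, Spag17 and Pifo, were above 0.5 CPM in every library, and with them 32 genes passed the filter on low counts. Tekt4 and Ccno had too few counts to test, and Mcidas had none. Summed over the 35 genes, the level was 243, 284, 94.9 and 455 CPM in libraries 1 to 4, lowest in library 3 and highest in library 4. Every one of the 32 tested genes was lowest in library 3, against 29.2% of all genes tested, and 30 of the 32 were highest in library 4, against 20.9%. In bulk RNA, fewer ciliated cells and less RNA per ciliated cell cannot be told apart.

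**Figure D1:**
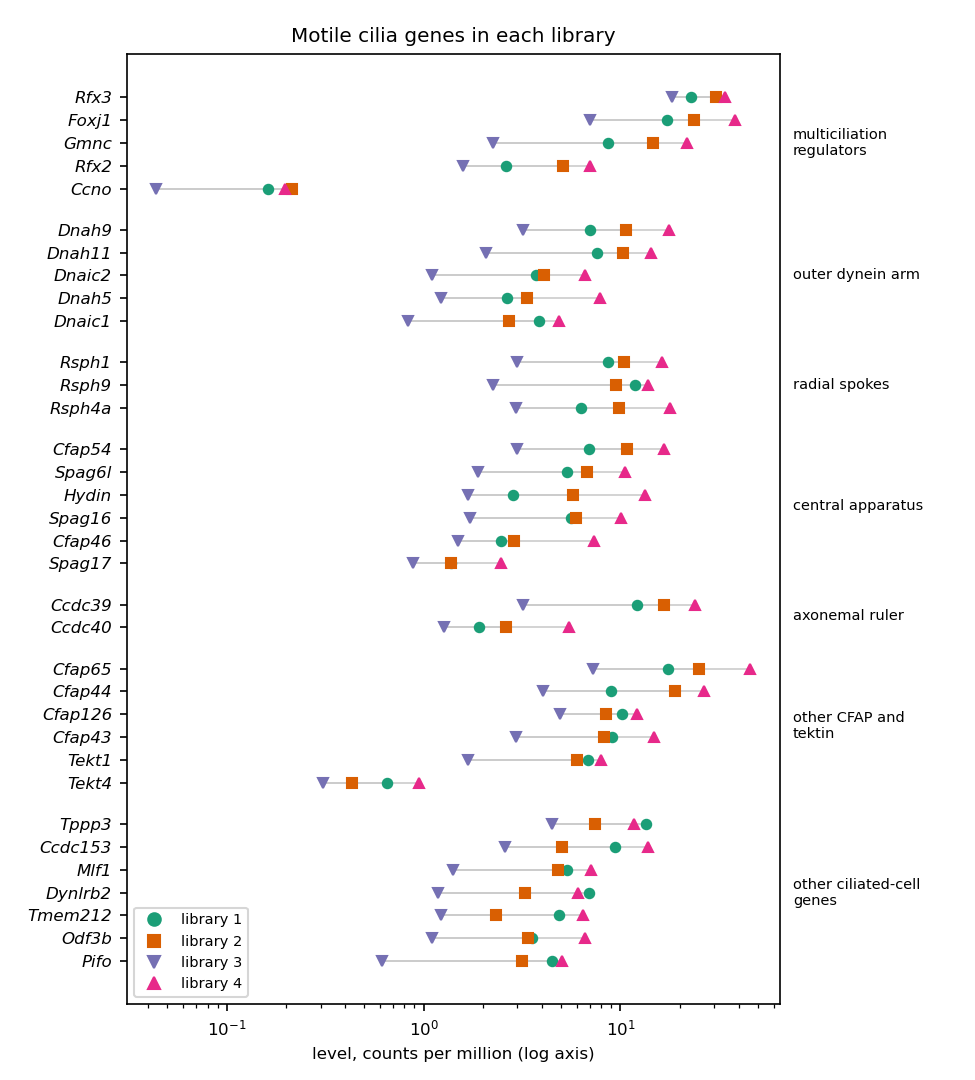
Level of each motile cilia gene with counts (34 genes; CPM on a log axis) in libraries 1 to 4, grouped by role, with a grey line from the lowest to the highest library. The downward triangle of library 3 is the lowest point in every row, and the upward triangle of library 4 is the highest in all rows but those of Ccno, Tppp3 and Dynlrb2.

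The promoters of the members are shown with the sites that RFX factors are known to bind. Whether such sites bear on the levels or their spread between libraries was not tested. RefSeq promoter windows on GRCm38.p6, from 250 bases before to 50 after each start, were at hand for 29 of the 35 genes. The 6-letter core GTTGCC was searched on both strands and occurred in 16 of the 29 genes (55.2%), against 14.1% of all 27025 genes with a window. A 14-letter spaced form (GTTNCC, any 3 bases, then GNAAC), which can overlap the core, was found for 5 of the 29 genes (17.2%), against 0.936% of all. Of the 19 cores in these windows, 5 lay inside such a spaced site. Some genes had several windows, and a gene counted when any of them held the letters. For forkhead factors, the family of FOXJ1, TGTTTAC was found in 2 of 29 genes (6.9%, against 4.05% of all) and TGTTTGT in 2 of 29 (6.9%, against 7.6%). A match is a match of letters, and the median GC content was 54.7% for these windows and 52.7% for all. The 5 spaced sites are shown because this form was the longest of the patterns searched. Each line gives 8 bases on either side, read on the gene's strand, with the site in capitals. The form is met on the gene's strand for Spag16, on the other strand for Hydin, Cfap44 and Tekt4, whose capitals must be reverse-complemented to read it, and on both for Pifo.
Spag16: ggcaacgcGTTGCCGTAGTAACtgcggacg
Hydin: actctgcgGTTGCTGTGGCAACagatggta
Cfap44: ggagggacGTTGCTATGGCAACcgcagtaa
Tekt4: tatacaatGTTCCTTAGGCAACcaggaacc
Pifo: gcggttccGTTCCCTTGGCAACgtagtaca

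The sites of Hydin, Cfap44 and Pifo ended 7, 13 and 6 bases before a RefSeq start, that of Spag16 ended 89 bases before one, and that of Tekt4 began at one. Pifo, on the minus strand, had 2 windows. Its site lay only in that at chr3:106001448-106001747, inside the gene. The window at chr3:106014597-106014896, where the GENCODE gene begins (106014646), held neither form. The Tekt4 window, from chr17:25471340 on, also lay inside its GENCODE gene, which begins at 25454615. Hydin and Cfap44 are 2 of the 6 genes that varied past the threshold between libraries (below), and the 250 bases before their starts are given here, plus strand, spaced site in capitals. They lie at chr8:110266727-110266976 for Hydin and chr16:44394549-44394798 for Cfap44. Gmnc and Ccdc39, which also varied past the threshold and had windows in the table, held neither the core nor the spaced form in them.
Hydin: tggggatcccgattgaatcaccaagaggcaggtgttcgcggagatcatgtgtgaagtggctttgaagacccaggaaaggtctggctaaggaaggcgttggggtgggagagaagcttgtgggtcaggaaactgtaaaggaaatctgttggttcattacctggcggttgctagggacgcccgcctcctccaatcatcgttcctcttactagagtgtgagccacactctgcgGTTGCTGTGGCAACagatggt
Cfap44: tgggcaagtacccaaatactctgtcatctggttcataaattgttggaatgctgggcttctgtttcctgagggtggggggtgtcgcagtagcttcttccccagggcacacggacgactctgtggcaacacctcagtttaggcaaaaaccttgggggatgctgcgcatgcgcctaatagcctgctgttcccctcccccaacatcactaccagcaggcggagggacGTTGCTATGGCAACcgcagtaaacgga

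Among the regulators of multiciliation, Foxj1, Gmnc, Rfx2 and Rfx3 were tested and Mcidas and Ccno were at or near the floor. Foxj1 (ENSMUSG00000034227, chromosome 11, 116330704 to 116335399), the forkhead factor that switches on motile cilia genes, had 17.3, 23.6, 7.04 and 38.3 CPM in libraries 1 to 4. Gmnc (chromosome 16, 26913553 to 26991652), a coiled-coil regulator that starts the multiciliated program, had 8.65, 14.6, 2.25 and 21.8 CPM. Both were lowest in library 3 by a wide gap, and their folds between the highest and the lowest library were 5.44 and 9.70, the latter the largest of the 32 genes. Spread between libraries was tested per gene over 14112 genes by the goodness of fit of a negative binomial model (edgeR), which asks whether a gene varies more than genes of its level. Foxj1 and Gmnc passed the threshold of 0.05 (edgeR, adjusted p = 0.00929 and 0.00309), as did 3.28% of all genes tested.

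Rfx3, which acts in both primary and motile cilia, had 22.8, 30.5, 18.4 and 33.9 CPM, a fold of 1.85. That was the smallest fold of the 32 genes, and edgeR gave an adjusted p of 1.00. Rfx2, a second RFX factor, was lower, at 2.61, 5.10, 1.58 and 7.03 CPM (edgeR, adjusted p = 0.553). Mcidas, a relative of Gmnc that drives centriole amplification, had 0 counts in each library, which allows up to 3 counts, or 0.119 to 0.132 CPM. Ccno, a cyclin-like protein needed for the same step, had 4, 5, 1 and 5 counts. Per length, Foxj1 stood highest of all 35 genes at 28.9 ± 18.6 TPM, against 8.32 ± 2.62 for Rfx3, 7.26 ± 5.37 for Gmnc and 1.96 ± 1.26 for Rfx2.

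The outer dynein arm, the motor that sets beat frequency, was represented by 3 heavy chains and 2 intermediate chains. Dnah9 and Dnah11, heavy chains, had 7.02, 10.6, 3.21 and 17.7 CPM and 7.63, 10.4, 2.07 and 14.3 CPM in libraries 1 to 4. Dnah5, the third heavy chain, had 2.65, 3.37, 1.23 and 7.86 CPM. In all 3, library 3 was lowest, library 1 next and library 4 highest, with folds of 5.51, 6.92 and 6.38. The intermediate chains Dnaic1 and Dnaic2 had 3.08 ± 1.74 and 3.88 ± 2.25 CPM, with folds of 5.84 and 5.99. None of the 5 passed the threshold in edgeR (adjusted p = 0.0833 for Dnah11, the lowest of them), and all 5 had an unadjusted p under 0.05 there, as did 9.57% of all genes tested. Per length the heavy chains stood at 0.851 ± 0.677 (Dnah5), 2.08 ± 1.32 (Dnah11) and 2.13 ± 1.44 TPM (Dnah9). Of the 2 last, Dnah11 was higher in libraries 1 and 2 and Dnah9 in libraries 3 and 4.

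The radial spokes, which pass signals from the central apparatus to the dyneins, were led by Rsph1 and Rsph9. Rsph9 had 11.9, 9.50, 2.25 and 13.8 CPM, Rsph1 had 8.61, 10.5, 2.99 and 16.2 CPM, and Rsph4a, a spoke head protein, had 6.32, 9.80, 2.95 and 17.9 CPM. Library 3 lay far below the others for each of them, and only for Rsph9 was library 1 above library 2. Their folds were 6.15, 5.42 and 6.07, and none passed the threshold (edgeR, adjusted p = 0.0944, 0.182 and 0.0825). Per length, Rsph1 and Rsph9 had 24.4 ± 14.8 and 20.3 ± 11.2 TPM, SDs that include the differences between libraries that both genes share. Rsph1 was the lower of the 2 in library 1 (20.2 against 23.9 TPM) and the higher in libraries 2, 3 and 4.

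Of the central apparatus, 6 genes were measured and Hydin varied past the threshold. Hydin (ENSMUSG00000059854, chromosome 8, 110266977 to 110610253), a very large protein of the central pair whose loss causes hydrocephalus in mice, had 2.86, 5.74, 1.67 and 13.3 CPM, a fold of 7.92 (edgeR, adjusted p = 0.0313). It was highest in library 4 by a wide gap, and it was the 1 member that kept its call without library 3 (adjusted p = 0.0115 in edgeR). It lost the call without library 1, 2 or 4 (edgeR, adjusted p = 0.0839, 0.102 and 1.00). Cfap54, Spag6l, Spag16 and Cfap46, all proteins of the central apparatus, had 9.36 ± 5.85, 6.13 ± 3.58, 5.85 ± 3.44 and 3.55 ± 2.57 CPM, with folds of 4.88 to 5.89. Spag17 was the lowest tested gene, with 1.39, 1.38, 0.880 and 2.46 CPM and a fold of 2.79. Only 86.5% of the transcript sequence of Spag17 was unique at a word length of 50 bases. It overlaps Wdr3 and Spag17os on the other strand, so its level is uncertain.

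Ccdc39 and Ccdc40 form the ruler along which dyneins and spokes repeat on the axoneme. Ccdc39 (chromosome 3, 33812362 to 33844310) had 12.2, 16.7, 3.21 and 24.0 CPM and a fold of 7.46 (edgeR, adjusted p = 0.00983). Its partner Ccdc40 was far lower in counts, at 1.92, 2.63, 1.28 and 5.48 CPM, and its fold of 4.29 did not pass (edgeR, adjusted p = 0.632). The transcript of Ccdc39 overlaps Ttc14 on the other strand and was 85.7% unique, so its level is uncertain. Apart from Ccdc39 and Spag17, every member had at least 95.2% unique sequence.

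Cfap65 and Cfap44 had the strongest calls among the remaining axonemal genes. Cfap65 (ENSMUSG00000047021, chromosome 1, 74902071 to 74935599) had 17.5, 25.0, 7.26 and 45.7 CPM, the smallest adjusted p of all members (0.000982, edgeR). Cfap44 (ENSMUSG00000071550, chromosome 16, 44394796 to 44482428), which with Cfap43 tethers inner dynein arms to the axoneme, had 8.93, 18.8, 4.05 and 26.7 CPM (edgeR, adjusted p = 0.00635). Its partner Cfap43 had 9.06, 8.25, 2.95 and 14.8 CPM (edgeR, adjusted p = 0.286). Library 2 was well above library 1 for Cfap44 and slightly below it for Cfap43. Cfap126, or Flattop, which positions basal bodies, was among the flattest genes, with 10.2, 8.42, 4.93 and 12.1 CPM and a fold of 2.46. The tektin Tekt1, a filament inside axonemal microtubules, had 6.85, 6.05, 1.67 and 7.94 CPM. Its relative Tekt4 had 16, 10, 7 and 24 counts and was not tested.

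The last 7 genes are known from ciliated cells, and several serve as markers of ependyma. Tmem212 and Ccdc153, ependymal markers, had 4.90, 2.33, 1.23 and 6.47 CPM and 9.38, 5.05, 2.60 and 13.7 CPM. Dynlrb2, a dynein light chain of ciliated cells, had 6.94, 3.28, 1.19 and 6.11 CPM, and Tppp3, a tubulin-binding protein, had 13.5, 7.47, 4.49 and 11.7 CPM. These 2 were the only tested members highest in library 1, and all 4 were lower in library 2 than in library 1. Pifo, which acts at the base of cilia, had 4.49, 3.15, 0.616 and 5.04 CPM and a fold of 8.18, which rests on 14 counts in library 3 and was 4.96 with a pseudocount of 0.5 CPM. Mlf1 and Odf3b had 4.67 ± 2.37 and 3.67 ± 2.27 CPM. None of the 7 passed the threshold (edgeR, adjusted p from 0.183 for Pifo to 0.863 for Tppp3). Per length, Dynlrb2 (27.1 ± 16.0 TPM), Tmem212 (18.1 ± 11.8 TPM) and Tppp3 (17.3 ± 7.37 TPM) were near Foxj1 and Rsph1. These SDs include the differences between libraries that the genes share. Dynlrb2 was above Tmem212 in every library (40.2, 21.2, 7.19 and 39.8 against 22.1, 11.7, 5.79 and 32.7 TPM). Tmem212 was above Tppp3 only in library 4.

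In all, 6 of the 32 tested genes (18.8%) varied between libraries past the threshold in edgeR, against 3.28% of all genes tested and 3.23% of the 6344 genes with a mean CPM in the range of these 32 (1.53 to 26.4). At an unadjusted p under 0.05 there were 25 members, against 9.57% of all genes tested. The quasi-likelihood test called 0 of all genes and 0 members, with 9 members at an unadjusted p under 0.05, against 4.66% of all genes, and the 5 dispersion outliers in DESeq2 held no member. The count of 6 thus depended on the test. It was 5, 3, 1 and 0 without library 1, 2, 3 and 4, against 2.98%, 1.94%, 0.716% and 1.82% of all genes tested. The other settings in the closing section called 3.31% (total counts), 3.22% (DESeq2 size factors and homeostatic scaling), 3.61% (length correction), 1.5% (no filter), 7.5% (common dispersion), 0% (quasi-likelihood) and 0.0354% (DESeq2 outliers) of all genes. The median fold between the highest and the lowest library was 5.58 for the 32 genes and 1.43 for all genes tested, and 29 members reached a fold of 3, against 12.5% of all genes tested. It fell to 1.93 without library 3 and to 3.48 without library 4. In simulated libraries of this size, 4 of 100 genes lowered 2-fold in 1 library were called and 47 of 100 lowered 4-fold.

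Marker genes of other cell types were set beside the members. Library 3 was the lowest and library 4 the highest for all 16 choroid plexus genes and for 30 of 32 members, against 13.2% of all genes tested. Of the 10 endothelial genes 9 were lowest in library 3 but 1 was highest in library 4, and of 9 genes of pericytes and smooth muscle all 9 had their minimum in library 3 and 1 its maximum in library 4. Levels in library 4 were above those in library 1 for 30 of 32 members (51.7% of all genes tested) and 16 of 16 choroid plexus genes. This was also so for 8 of 9 astrocyte, 4 of 6 tested neuron, 5 of 7 non-ciliary ependyma and 18 of 24 primary cilium genes. It was so for only 3 of 10 endothelial and 2 of 9 pericyte and smooth muscle genes. Of the 9 astrocyte genes, 7 were highest in library 4 and 5 lowest in library 3. Summed levels in libraries 1 to 4 were 1022, 992, 228 and 860 CPM for endothelium, 726, 701, 110 and 481 CPM for pericytes and smooth muscle, 294, 239, 267 and 329 CPM for astrocytes and 25.2, 27.8, 17.3 and 28.7 CPM for neurons. The 8 oligodendrocyte genes summed to 870, 474, 392 and 604 CPM, 7 of them highest in library 1 and 0 higher in library 4 than in library 1. Past the threshold of the spread test were 2 of these 8, 16 of 16 choroid plexus, 9 of 10 endothelial and 7 of 9 pericyte and smooth muscle genes. So were 4 of 7 non-ciliary ependyma genes, but 0 of 9 astrocyte and 0 of 6 tested neuron genes, against 3.28% of all genes tested. No marker of these lists was at 0 in all 4 libraries, and the part of each cell type in the members' levels was not tested.

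**Figure D2:**
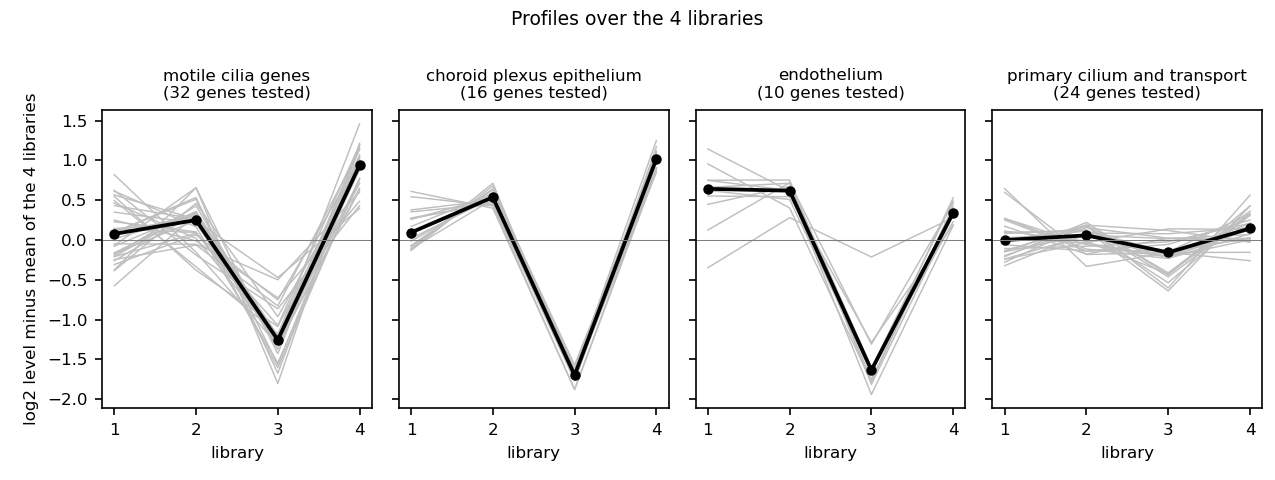
Log2 level minus the mean of the 4 libraries (pseudocount 0.5 CPM) for tested genes of 4 lists. Grey lines are genes, black points and lines are list medians, and libraries have no order. Medians of motile cilia and choroid plexus genes had their minimum in library 3 and maximum in library 4, endothelial genes were also low in library 3 but had medians of 0.64 and 0.62 in libraries 1 and 2 against 0.34 in library 4, and primary cilium genes stayed near 0.

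Set against Ttr, most differences between libraries were smaller. The SD over libraries of the log2 ratio to Ttr was below that of the log2 level for 27 of the 32 members, against 10.2% of all genes tested, and the median SD was 0.50 for the ratio and 0.94 for the level. The same held for 9 of 10 endothelial genes, 8 of 9 genes of pericytes and smooth muscle and 6 of 7 non-ciliary ependyma genes. These lists were also low in library 3, so the smaller SD is not particular to the motile cilia genes. Levels carried a pseudocount of 0.5 CPM and ratios one of 0.5 counts, which damps the level SD more. The SDs are thus not fully alike. Genes near equality may owe their side to this, such as Ccdc40 (level 0.744, ratio 0.790) and Tppp3 (0.673 and 0.710). Rsph9 had the smallest range of this ratio among the 32 members, with 1.05, 0.907, 1.06 and 0.949 counts per 1000 counts of Ttr in libraries 1 to 4. Pifo had the next smallest range (0.396, 0.301, 0.291 and 0.346), while Ccdc39 had 1.07, 1.59, 1.52 and 1.65, lowest in library 1. Foxj1 had 1.53, 2.25, 3.33 and 2.63 counts per 1000 of Ttr, highest in library 3, where its level was lowest. The ratio was likewise highest there for 26 of the 32 members, Foxj1 included, against 96.5% of all genes tested.

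A test of the ratio used the same goodness of fit with the Ttr count of each library in place of its size. It called 1 of the 32 members, against 86.1% of all genes tested and 75.9% of the 6344 genes in the members' range of levels. Other lists low in library 3 also had few calls. These were 3 of 10 endothelial genes, 3 of 9 genes of pericytes and smooth muscle and 2 of 7 non-ciliary ependyma genes. Of the 15 other choroid plexus genes 0 were called. The called gene was Rfx3, with 2.01, 2.91, 8.68 and 2.33 counts per 1000 of Ttr (edgeR, adjusted p = 2.06e-05). The next were Cfap126 (0.899, 0.804, 2.33 and 0.831; edgeR, adjusted p = 0.0728) and Tppp3 (1.19, 0.713, 2.12 and 0.807; edgeR, adjusted p = 0.106). In each of these 3 genes library 3 stood above the rest. Without library 3 the test called 0 members, against 1.34% of all genes, and Rfx3 had an adjusted p of 0.585 in edgeR. Without library 1, 2 or 4 it called 85.8%, 85% and 84.2% of all genes and 1 member each. With the 15 other choroid plexus genes summed in place of Ttr it called 84.5%, with no filter 50%, and with a common dispersion 88.5%. A p above the threshold does not show that a ratio was constant.

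Most members had their highest ratio to Ttr in library 3. This was so for 26 of the 32, against 96.5% of all genes tested, and 21 had their lowest ratio in library 1, against 21.6%. Summed over the 35 genes there were 21.4, 27.1, 44.9 and 31.3 counts per 1000 counts of Ttr in libraries 1 to 4, and 19.4, 24.2, 36.2 and 28.9 without Rfx3. The 15 other choroid plexus genes summed to 459.6, 597, 645 and 603 per 1000 of Ttr in the same order of libraries.

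**Figure D3:**
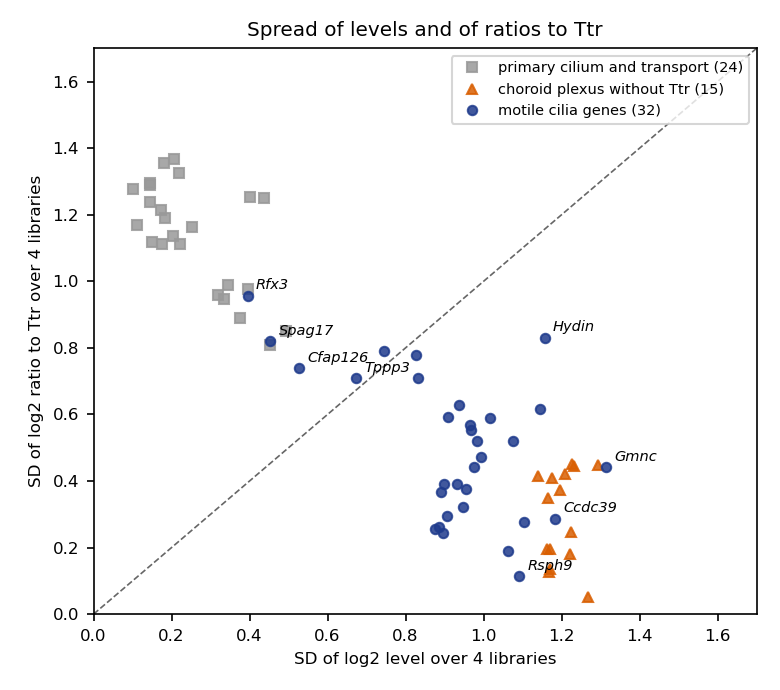
SD over the 4 libraries of the log2 level (horizontal axis) and of the log2 ratio to Ttr (vertical axis) for tested genes of 3 lists, with the dashed line where both are equal. Of the motile cilia genes 27 of 32 lie below the line with the choroid plexus genes, while Rfx3, Spag17, Ccdc40, Cfap126 and Tppp3 lie above it. Levels carried a pseudocount of 0.5 CPM and ratios one of 0.5 counts, so genes near the line may owe their side to this.

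Libraries 1 and 2 split the members by transcript length. Of the 10 tested members with an exonic length of up to 2000 bases, 9 were higher in library 1 than in library 2, with a median log2 difference of 0.28. Of the 22 longer ones, 4 were higher in library 1, with a median of -0.42. Dynlrb2 (556 bases) and Tmem212 (716 bases) were the shortest members, and Hydin (18037 bases) the longest. The same direction was seen over all other genes tested: 75.0% of those up to 2000 bases and 44.4% of longer ones were higher in library 1, with medians of 0.32 and -0.06. The Spearman correlation of length with the log2 difference between the 2 libraries was -0.71 over 32 members and -0.41 over 14105 genes, across genes that share these 2 libraries and are not independent. With a per-library trend on length removed, an alternative added after seeing the data, the same 6 members were called, and all 32 remained lowest in library 3.

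**Figure D4:**
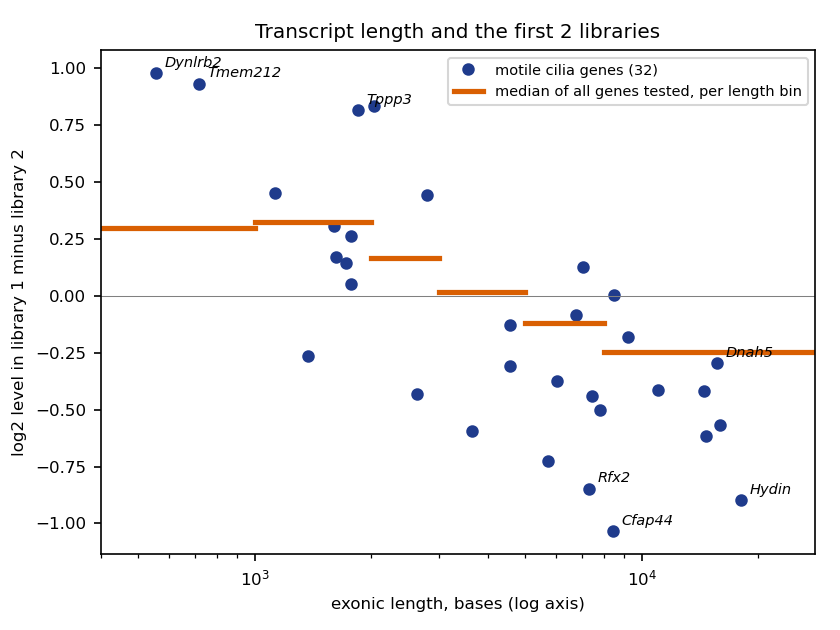
Log2 level in library 1 minus library 2 (vertical axis) against exonic length (horizontal log axis) for the 32 tested motile cilia genes, with orange bars for the median of all genes tested in 6 length bins. Short members such as Dynlrb2 and Tmem212 lie above 0 and long ones such as Hydin and Cfap44 below it, and the bars fall from 0.29 and 0.32 in the 2 shortest bins to -0.25 in the longest.

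Other genes of motile cilia were read from a longer list. Of 71 further genes, 58 were tested. Of these, 50 had their minimum in library 3, against 29.2% of all genes tested, and 51 their maximum in library 4, against 20.9%. Their median fold was 5.08, against 1.43 for all genes tested. In edgeR 3 of the 58 passed the threshold (5.17%), near the 3.28% of all genes tested. Drc7, of the nexin-dynein regulatory complex, had 29.2, 36.7, 9.16 and 51.3 CPM (edgeR, adjusted p = 0.000758). Dnah6, an inner arm dynein heavy chain, had 11.3, 21.4, 5.68 and 31.9 CPM (edgeR, adjusted p = 0.00945). Cfap69, of the central apparatus, had 15.7, 20.4, 5.02 and 31.3 CPM (edgeR, adjusted p = 0.00997). Lrrc23, a radial spoke protein, had 10.3, 12.4, 3.17 and 18.9 CPM (edgeR, adjusted p = 0.0845).

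The highest of the 71 per length, Cfap74, did not share the pattern, with 79.8, 120, 131 and 126 CPM (39.8 ± 9.35 TPM). Dnaaf3, a dynein assembly factor, had 10.2, 12.7, 18.4 and 18.3 CPM and Rfx1, a broadly expressed RFX factor, had 27.9, 41.0, 40.0 and 40.5 CPM, so that library 3 was not low for either. The ratio to Ttr varied past the threshold in 15 of the 58 (25.9%), against 86.1% of all genes tested. Cfap74, Dnaaf3 and Rfx1 were among the 15 (edgeR, adjusted p = 1.81e-20, 2.89e-09 and 9.24e-14). Unique sequence made up 93.5% of Cfap74 and 89.8% of Dnaaf3, both of which overlap a gene on the other strand.

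Genes that primary and motile cilia share had a median fold of 1.40, near the 1.43 of all genes tested. All 24 genes of intraflagellar transport and the ciliary base were detected. In edgeR 0 were called, against 3.28% of all genes tested, and 0 by the quasi-likelihood test, against 0% of all. At an unadjusted p under 0.05 there were 0 in either, against 9.57% and 4.66% of all genes tested. The 3 highest per length were Ift20 (64.4 ± 18.9 TPM), the kinesin subunit Kif3b (56.3 ± 6.66 TPM) and Ift52 (48.4 ± 2.95 TPM), against 28.9 ± 18.6 TPM for Foxj1. Kif3b had 82.6, 95.8, 92.6 and 96.0 CPM in libraries 1 to 4. Relative to Ttr all 24 varied past the threshold, as did 86.1% of all genes tested. The core GTTGCC was found in the windows of 9 of 20 of these genes (45%) and of 29 of 57 of the further motile cilia genes (50.9%). It was in those of 4 of 11 choroid plexus genes (36.4%), against 14.1% of all genes with a window.

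Genes known from ependyma that are not ciliary were also present. Rarres2, a secreted chemoattractant high in ependyma, had 13.3, 8.34, 2.91 and 15.4 CPM, Calml4, a calmodulin-like protein, had 21.2, 19.7, 3.83 and 27.8 CPM, and Nnat, a membrane proteolipid, had 22.8, 19.5, 11.1 and 57.5 CPM. Cd24a, a surface glycoprotein, had 9.44 ± 4.62 CPM, Hdc, the enzyme that makes histamine, had 5.99 ± 1.95 CPM, and Mia had 58, 12, 6 and 26 counts. All 7 tested genes of this list were lowest in library 3, and 5 were highest in library 4. S100b and Vim, which other brain cells also express, were highest in library 1, at 30.7, 11.7, 4.67 and 15.8 CPM and 179, 146, 57.2 and 119 CPM. Which cells their RNA came from was not tested. Calml4 kept an almost fixed ratio to Ttr (1.87, 1.88, 1.81 and 1.91 counts per 1000). This does not stand for the list, where the median SD of the log2 ratio to Ttr was 0.68 over the 7 tested genes. Which of ependyma and choroid plexus epithelium carried the motile cilia genes cannot be told apart in these libraries.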

How the data were processed

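The authors deposited raw counts per Ensembl gene, 1 column for each of 4 libraries. Per the labels' protocols, input was 300 ng of RNA, selected for poly(A), and the kit keeps strand. The submitters' processing notes name featureCounts 1.6.5, STAR 2.7.2b, bcl2fastq 2.20.0.422 and the build GRCm38. The sources used here do not state annotation release, strand setting or treatment of multi-mapping reads, so genes that overlap another gene are uncertain. Of 55471 genes, 55230 matched GENCODE M21.

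CPM, TPM and tests were computed here with edgeR 4.0.16 (R 4.3.3) and, as an alternative, DESeq2 1.42.0. The spread test set the residual deviance of an intercept-only negative binomial fit with trended dispersion against the chi-square distribution (3 degrees of freedom) for each of 14112 genes that filterByExpr kept, with Benjamini-Hochberg adjustment and a threshold of 0.05. The ratio test used the log Ttr count as offset with the same dispersions. A single group has no coefficient for a quasi-likelihood F-test, so that test compared each gene's variance with its prior. In simulated counts for the 14112 genes, the spread test called 2 of 13912 unchanged genes. The ratio test called 11 of 200 genes that followed the reference and 191 of 200 that were flat between libraries. In that simulation the reference had no counting noise and the dispersions were known. Genes with another profile that is low in 1 library were not simulated for the ratio test. How well it separates them from genes that follow Ttr is thus not shown. Members and lists were chosen with earlier results of these data known. All members are named; other genes were named by level or adjusted p within their list. Alternatives covered scaling, filter, dispersion, test, reference, length and leaving out each library.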

Additional observations from a re-analysis of the deposited data

Results flagged for a closer look

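With 4 libraries, a library was marked when its gap to the nearest other, divided by the range on the log2 scale, exceeded Dixon's critical value for 4 samples, which chance gives in about 1 of 20 groups. None of the 34 members with counts was marked on its level. Of 32 ratios to Ttr, 4 were. All these ratios share the Ttr counts, which were far lower in library 3 than elsewhere, so 1 of 20 is no yardstick for them. The share of all genes so marked is not at hand. Dnah11 had the lowest ratio in library 1 (gap over range 0.984; 0.672 counts per 1000 of Ttr against 0.978 to 0.989 in the others). Cfap44 was also lowest in library 1 (0.924; 0.787 counts per 1000, below the others). Cfap126 (0.896; 2.33 against 0.804 to 0.899) and Mlf1 (0.873; 0.666 against 0.462 to 0.485) were highest in library 3. Of 11 summed lists, 1 was marked, that of endothelium, lowest in library 3 (0.885; 228 CPM against 860 to 1022).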

How the results depend on the processing

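All 32 tested members stayed lowest in library 3 with total counts, DESeq2 size factors, homeostatic scaling (which moved library levels by up to 0.14 on the log2 scale) and length correction, and the same 6 were called under each of these. Without a filter on low counts 5 were called. A common dispersion called 28 members, 33 of the other motile cilia genes and, relative to Ttr, 7 members (1058 of all genes, against 463 as reported). The quasi-likelihood test and DESeq2 dispersion outliers called 0 members and 0 other motile cilia genes (0 and 5 of all genes). Leaving out 1 library gave 0 to 5 called members (0 to 3 other motile cilia genes), 0 to 1 relative to Ttr, 276, 106 and 258 of all genes without library 2, 3 and 4, 29 to 32 detected members and a median fold of 1.93 to 5.62. At 2 CPM in every library 16 members were detected. At 1 to 2 CPM in library 3 the deciding counts are few, and differences of about 2-fold would mostly be missed. No paired analysis was possible because there is 1 group.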
